A study of Mus musculus with 13 samples.

Results

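At p0, the day of birth, the study divided its proprioceptors into 3 clusters, and the comparison here is between the 12 neurons of cluster 2 and the 35 neurons of cluster 1. The members were taken from the authors' deposited annotation: 7 and 5 neurons of cluster 2, and 20 and 15 neurons of cluster 1, on plates 1 and 2. They make up 47 of the 55 neurons kept at p0, and of the 586 kept from the 1248 wells of the series. The 8 neurons of cluster 3 were left out, because they carried satellite glia RNA (3398 and 3613 CPM, the UMI count scaled to a common total per library, over 12 glial genes, against 126 and 133 CPM in cluster 2). The clusters had been found from the expression of these same neurons. The tests below therefore describe differences between sums of neurons on 2 plates, and they are no independent evidence that the clusters exist.

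Proprioceptors are the sensory neurons of the dorsal root ganglion (DRG) that report muscle length and tension. Group Ia and group II afferents end on muscle spindles, and group Ib afferents end on Golgi tendon organs. The neurons at p0 came from mice of genotype PV:Cre+/-, Rx3:Flp+/-, Ai65+/-, in which the red fluorescent protein tdTomato is made only in cells with a history of both parvalbumin-driven Cre and Runx3-driven Flp recombinase; a proprioceptor that had not yet switched on both drivers would be missed. DRG from 6 newborn mice of either sex were digested for 10 min in each enzyme step, and tdTomato-positive, viable neurons were sorted 1 to a well. All neurons of both clusters share this genotype, stage and treatment, and the labels do not tie a plate to an animal, so the spread between plates may be technical.

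Transcripts were counted as unique molecular identifiers (UMIs). The summed counts were 356779 and 247764 UMIs for cluster 2 and 869401 and 579119 UMIs for cluster 1. The median neuron held 46922 UMIs and 7693 genes in cluster 2 and 40022 UMIs and 7109 genes in cluster 1. Both clusters had the markers of their label: parvalbumin (Pvalb) stood at 3439 and 3168 CPM in cluster 2 and at 3800 and 3609 CPM in cluster 1, and neither Runx3, Etv1 nor Ntrk3 passed the test between them. Of the 11 proprioceptor genes, 2 were higher in cluster 2 (Isl1 and Avil) and 1 was lower (Spp1), beside 2.12% and 1.38% of all genes tested. The 12 glial markers summed to 153 and 133 CPM in cluster 1, so the ranges of the clusters overlapped, with Cdh19, Kcnj10 and Egfl8 at 0 in both. Fibroblast, mural, macrophage and nociceptor lists stood between 0 and 11.5 CPM. The 6 genes listed for cutaneous mechanoreceptors, among them Ret, Maf and Ntrk2, stood higher, at 30.8 and 117 CPM in cluster 2 and at 75.9 and 89.8 CPM in cluster 1, so that the ranges overlapped. The reporter also labels some skin afferents, and their part in the results was not tested.

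Several regulatory genes were among the largest differences between the clusters. Id1, Id2 and Id3 encode inhibitor of DNA binding proteins, which have no DNA-binding region of their own and act by holding basic helix-loop-helix (bHLH) factors off the genome. They are well-known early targets of bone morphogenetic protein (BMP) signaling through Smad1, Smad5 and Smad9. Hes1 is a bHLH repressor best known as a Notch target, and Pou4f3 (Brn3c) is a POU-domain factor known from hair cells and sensory ganglia.

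The UMIs of each cluster were summed on each plate and fitted with edgeR, plate against plate, over 6093 genes. In cluster 2, 129 genes were higher (2.12% of those tested) and 84 were lower (1.38%), each at a Benjamini-Hochberg adjusted p under 0.05. The 12 genes with the largest rises and the 12 with the largest falls, ranked without the 17 called predicted genes, clones and pseudogenes, are named below with the transcription factors and gene lists of interest. The fit paired these same plates, and 5 of the genes called higher had opposite signs on them. A small adjusted p therefore does not show that a difference repeated on both plates. Reg3b, with opposite signs, had an edgeR adjusted p of 5.94e-36. Changes of at least 2-fold were fitted for 79 of the higher and 36 of the lower genes. The count depends on the model: DESeq2 called 21 genes (12 higher, 9 lower), 60 were called without pairing by plate, and 15 or 22 were called with plate 1 or plate 2 left out. Id2, Id3, Hes1, Pou4f3, Cartpt, Dqx1, Sct, S100a13 and Tac1 were among the 21.

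**Figure D1:**
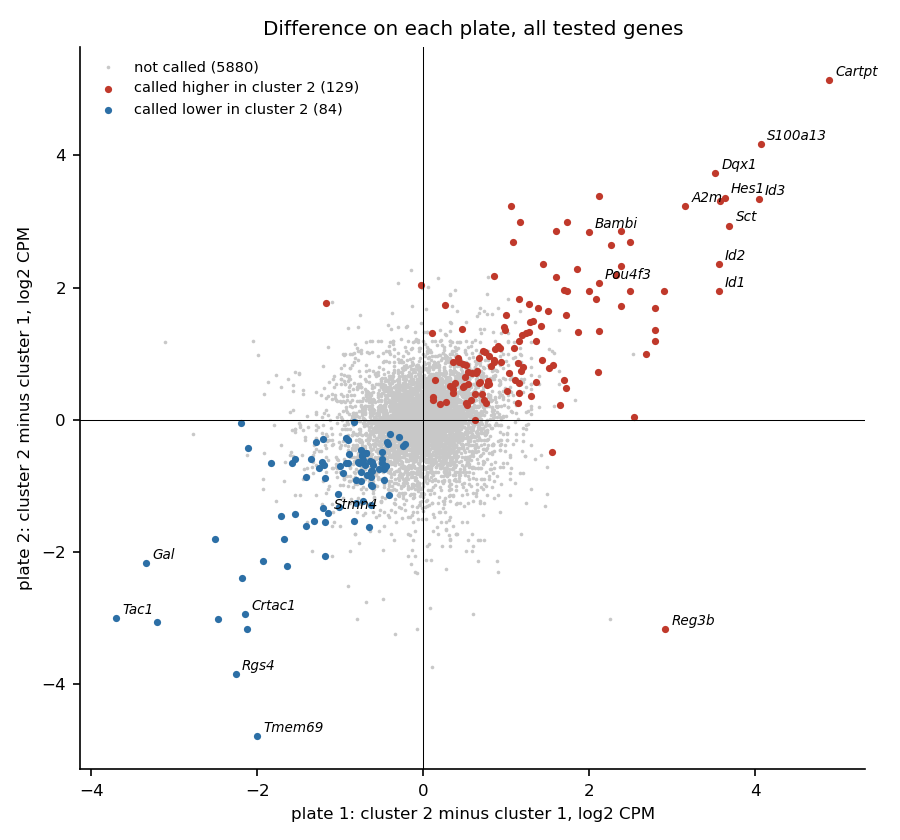
Difference between cluster 2 and cluster 1 on plate 1 (horizontal) and on plate 2 (vertical), in log2 CPM, for the 6093 genes tested; red and blue points are the 129 genes called higher and the 84 called lower. The called genes had the same sign on both plates, except Reg3b, high in 1 neuron of plate 1, and A330069E16Rik, Vps72, Lhfpl4 and Anxa5, which had opposite signs on the plates.

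Id3 showed the most even difference of the Id family. It stood at 154 and 157 CPM in cluster 2 (plates 1 and 2) and at 5.75 and 12.1 CPM in cluster 1, and every neuron of cluster 2 held it, against 11 of 35 in cluster 1. In the glia-rich cluster 3, left out of the test, Id3 stood at 63.3 and 206 CPM. The fitted log2 fold change was 4.20 ± 0.34 (SE, edgeR quasi-likelihood test, adjusted p = 5.05e-31). Id2 stood at 177 and 121 CPM in cluster 2 and at 11.5 and 20.7 CPM in cluster 1. It was found in 12 of 12 and 15 of 35 neurons, with a log2 fold change of 3.32 ± 0.31 (edgeR adjusted p = 2.44e-24). For both genes the plates of cluster 2 lay above those of cluster 1 without overlap.

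Id1 was sparser, with 42.0 and 24.2 CPM in cluster 2 and 0 and 3.45 CPM in cluster 1. It was found in 9 of 12 neurons of cluster 2 and in 1 of 35 of cluster 1. Since the latter held 2 UMIs in all, the difference is given as a ratio of summed levels, 25.2 with a counting interval of 6.15 to 221. The fourth family member, Id4, did not follow: it stood at 53.3 and 32.3 CPM in cluster 2 and at 65.6 and 70.8 CPM in cluster 1 (edgeR adjusted p = 0.405). Thus 3 of 4 Id genes were higher in cluster 2, beside 2.12% of all genes tested. The median log2 fold change was 3.76 over the 4 and 0.00 over all genes tested. The study had named Id1, Id2 and Id3 from these same p0 clusters, so the count is not independent evidence. DESeq2 called 2 of the 3, and Id1 lost its call with DESeq2 and without plate 1.

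Hes1 rose with them. Its level was 101 and 88.8 CPM in cluster 2 and 4.60 and 5.18 CPM in cluster 1, and it was found in 12 of 12 and 5 of 35 neurons. The log2 fold change was 4.26 ± 0.45 (edgeR adjusted p = 2.03e-18). The 4 plate values separate widely, and the values within a cluster lie close together. The other tested bHLH genes, Hes6 and the growth regulator Myc, had adjusted p of 0.496 and 0.994, so 1 of 3 was called. Tcf15, a mesodermal bHLH factor, was too sparse to be tested: it was seen in 8 of 12 neurons of cluster 2 (25.2 and 12.1 CPM) and in 0 of 35 of cluster 1. With each neuron thinned to 5000 UMIs, Tcf15 was left in 0% of the neurons of both clusters. Before thinning, against a floor of 3 UMIs over cluster 1 it was at least 9.58-fold higher.

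Within neurons, the UMIs of Id1, Id2 and Id3 summed to 9 to 35 per neuron (plate 1) and 9 to 25 (plate 2) in cluster 2. In cluster 1 they summed to 0 to 2 and to 0 to 6, so that no neuron of cluster 1 reached the lowest of cluster 2. Shares of neurons depend on depth. With each neuron thinned to 5000 UMIs, Id3 was left in 75.0% of cluster 2 and 5.71% of cluster 1 (100% and 31.4% before), whereas for Id2 the shares were 33.3% and 5.71% (100% and 42.9% before), and for Hes1 16.7% and 0% (100% and 14.3% before).

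Of the BMP and transforming growth factor β pathway, 7 of 40 listed genes were high enough to test, and 1 was called higher (2.12% of all genes tested). This was Bambi, a membrane pseudoreceptor that dampens BMP and TGF-β signaling and is itself a BMP target. Bambi stood at 25.2 and 48.4 CPM in cluster 2 and at 3.45 CPM on both plates in cluster 1, and was found in 6 of 12 and 4 of 35 neurons (log2 fold change 3.24 ± 0.73, edgeR adjusted p = 0.000694). Its call was lost with DESeq2, which called 0 genes of the list, and with either plate left out. The receptor Bmpr2 (75.7 and 88.8 against 65.6 and 82.9 CPM) and the transducer Smad1 (44.8 and 52.5 against 57.5 and 57.0 CPM) had adjusted p of 0.881 and 0.857. Smad9 stood at 39.2 and 24.2 CPM in cluster 2 and at 15.0 and 17.3 CPM in cluster 1, above it on both plates, with an adjusted p of 0.367. The median log2 fold change over the 7 was 0.17. The BMP ligands on the list were below the filter on low counts.

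**Figure D2:**
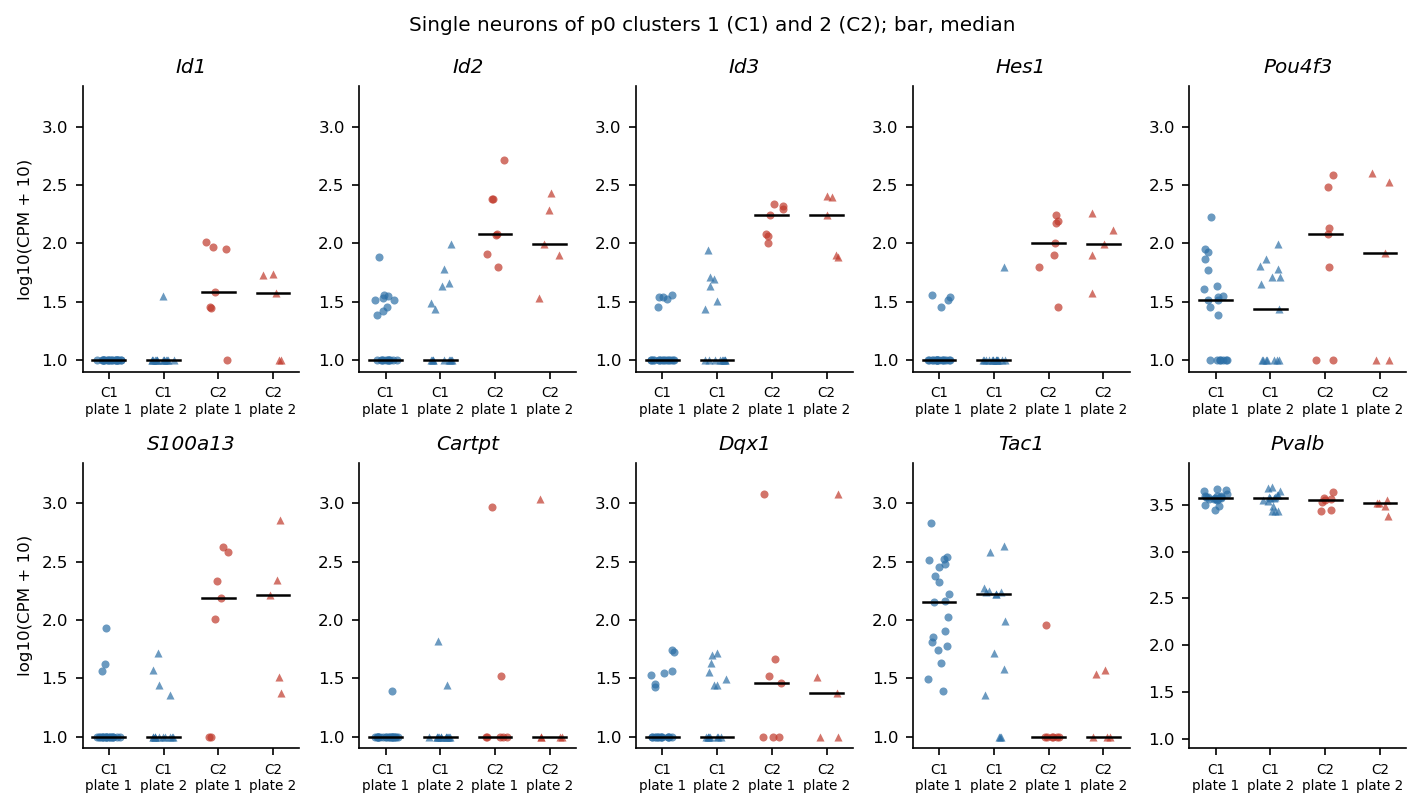
Level of 10 genes in each neuron of clusters 1 (blue) and 2 (red), as log10(CPM + 10) by plate (circles, plate 1; triangles, plate 2), with a bar at the median. Id2, Id3 and Hes1 were found in all 12 neurons of cluster 2, Pou4f3 in 8 of them and Cartpt in 3, whereas Pvalb was found in every neuron of both clusters.

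Pou4f3 was higher in cluster 2 on both plates, at 151 and 141 CPM against 32.2 and 31.1 CPM. The log2 fold change was 2.22 ± 0.27 (edgeR adjusted p = 3.14e-14), and the call was lost with plate 1 or plate 2 left out (adjusted p = 0.553 and 0.198). It was not a feature of every neuron: 8 of 12 neurons of cluster 2 and 21 of 35 of cluster 1 held a UMI, and in cluster 2 the count ran from 0 to 21 UMIs. When thinned to 5000 UMIs the shares were 41.7% and 8.57%. Its relative Pou4f1 (Brn3a), which marks sensory neurons in general, stood at 95.3 and 68.6 CPM in cluster 2 and at 107 and 63.9 CPM in cluster 1 (adjusted p = 0.968). Of 16 POU, LIM and other sensory transcription factors tested, 3 were higher and none lower (2.12% and 1.38% of all genes tested). They were Pou4f3, the LIM-homeodomain factor Isl1 (420 and 416 against 296 and 235 CPM, log2 fold change 0.65 ± 0.14, its call kept in 5 of 12 alternatives) and Tcf19, a nuclear protein with 25.2 and 24.2 CPM against 0 and 3.45 CPM (ratio 18.0, counting interval 4.18 to 162), whose call was lost with DESeq2 and without pairing by plate. DESeq2 called 1 of the 3, Pou4f3. Of the other factors that the study named at p0, none was high enough to test. The zinc finger gene Zfp235 stood at 0 and 4.04 CPM in cluster 2 and at 12.7 and 13.8 CPM in cluster 1 (ratio 7.93 of cluster 1 over cluster 2, counting interval 1.26 to 329). Crip1 and the Wnt effector Tcf7l2 were low in both: Crip1 at 2.80 and 4.04 against 6.90 and 3.45 CPM, and Tcf7l2 at 0 and 4.04 against 1.15 and 1.73 CPM. In cluster 3 they stood at 113 and 151 CPM and at 14.1 and 64.9 CPM. The ETS factor Etv1 and Runx3, both needed for proprioceptor development, had adjusted p of 0.205 and 0.943.

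The neuropeptides divided the clusters in both directions. Of 10 tested peptide and granin genes, 2 were higher in cluster 2 and 4 were lower, beside 2.12% and 1.38% of all genes tested. Cartpt, which encodes the CART peptides, had the largest fitted rise after A2m, at 146 and 315 CPM against 1.15 and 5.18 CPM (log2 fold change 6.16 ± 0.38, edgeR adjusted p = 3.62e-53). This summed level came from few neurons, since 3 of 12 held the gene, with 51, 1 and 78 UMIs, and 60.0% of the UMIs lay in 1 neuron. Pou4f3 and Cartpt were found together in 1 of the 12. Tac1, the substance P precursor, was the reverse: 8.41 and 12.1 CPM in cluster 2 and 158 and 124 CPM in cluster 1, found in 3 of 12 and 32 of 35 neurons. Its log2 fold change was -3.81 ± 0.39 (edgeR adjusted p = 1.19e-19), and its plate values did not overlap.

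Galanin (Gal) was lower in cluster 2 on each plate, at 2.80 and 52.5 CPM against 64.4 and 250 CPM. Its level differed between plates in both clusters, 1 neuron held 41.3% of its UMIs in cluster 1, and without pairing by plate its adjusted p was 0.188. Adcyap1, the precursor of PACAP, stood at 47.6 and 60.5 CPM against 115 and 100 CPM (log2 fold change -1.02 ± 0.27). Of the granins, Scg2 was called lower at 89.7 and 76.7 against 171 and 112 CPM, and Chgb was called higher at 320 and 291 against 231 and 205 CPM. Both changes were under 2-fold. These calls and that of Adcyap1 depend on the fit: Chgb kept its call in 1 of 12 alternatives, Scg2 in 4 of 12 and Adcyap1 in 5 of 11. DESeq2 called 3 of the 6 peptide and granin genes.

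The genes with the 12 largest rises differed in how many neurons of cluster 2 held them. S100a13, a calcium-binding protein linked to secretion of fibroblast growth factor 1, stood at 157 and 190 CPM against 5.75 and 6.91 CPM, in 10 of 12 and 7 of 35 neurons (log2 fold change 4.73 ± 0.35, edgeR adjusted p = 3.98e-37). S100a1, its neighbor on chromosome 3, stood at 30.8 and 32.3 CPM against 2.30 and 1.73 CPM, in 8 of 12 and 3 of 35 neurons (ratio 15.2, counting interval 4.47 to 80.1). A2m, the protease inhibitor alpha-2-macroglobulin, stood at 30.8 and 32.3 CPM in cluster 2, where 8 of 12 neurons held it, and had no UMI in cluster 1, and was at least 15.2-fold higher against a floor of 3 UMIs. F2r, the thrombin receptor, and Cmtm8 were low, at 22.4 and 24.2 CPM each in cluster 2. F2r was found in 5 of 12 and 1 of 35 neurons, with 42.9% of its UMIs in 1 neuron, which held all those of plate 2 (ratio 33.5, counting interval 5.10 to 1418). Cmtm8 was found in 9 of 12 and 2 of 35 neurons (ratio 16.8, counting interval 3.85 to 152). DESeq2 called none of S100a1, A2m, F2r and Cmtm8.

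The helicase-like gene Dqx1 and secretin (Sct) had much of their level in single neurons. Dqx1 stood at 171 and 230 CPM against 11.5 and 13.8 CPM, but 57 and 55 UMIs lay in 1 neuron of each plate, and 7 of 12 and 14 of 35 neurons held it. Sct stood at 370 and 157 CPM against 25.3 and 17.3 CPM in 11 of 12 and 15 of 35 neurons, with 53.2% of its UMIs in 1 neuron. Across the genes called higher, 72 of 129 were found in every neuron of cluster 2, and 7 had at least 50.0% of their UMIs in 1 neuron. The extreme was Reg3b, a secreted lectin induced by nerve injury, with 262 UMIs (99.2%) in 1 neuron of plate 1 and none on plate 2. With the highest neuron of each gene and sum set to the second highest, an alternative chosen after seeing the data, 175 genes were called.

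**Figure D3:**
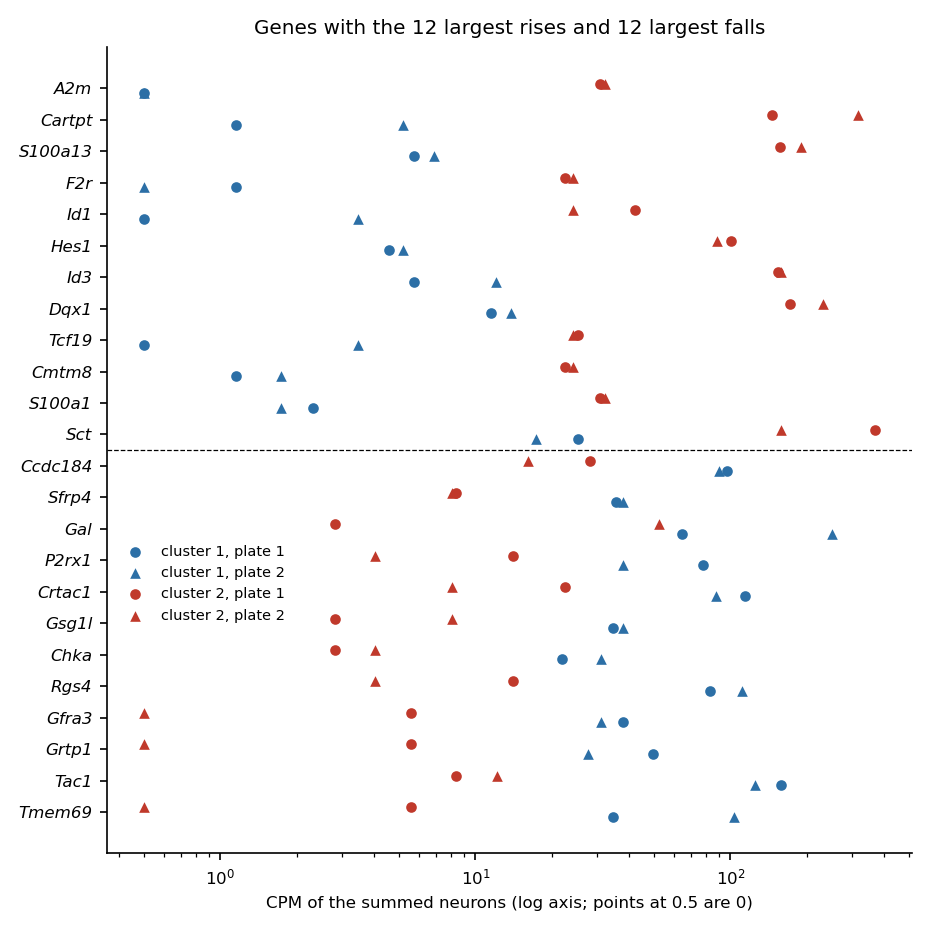
Level of the genes with the 12 largest rises (top) and the 12 largest falls (bottom), predicted genes, clones and pseudogenes left out, in the 4 sums of neurons, as CPM on a log axis; a point drawn at 0.5 stands for 0. In each row the 2 plates of cluster 2 (red) lie apart from the 2 plates of cluster 1 (blue).

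The largest falls besides Tac1 and Gal included receptors and signaling genes. Gfra3, the artemin receptor, stood at 5.61 and 0 CPM in cluster 2 and at 38.0 and 31.1 CPM in cluster 1 (ratio 10.6 of cluster 1 over cluster 2, counting interval 2.80 to 90.3). Rgs4, a brake on G protein signaling, stood at 14.0 and 4.04 CPM against 82.8 and 111 CPM and was found in 2 of 12 and 22 of 35 neurons (log2 fold change -3.20 ± 0.43, edgeR adjusted p = 2.16e-11). P2rx1, an ATP-gated channel, stood at 14.0 and 4.04 CPM against 78.2 and 38.0 CPM. These genes were lower in cluster 2 on both plates with no overlap. Crtac1, a secreted matrix protein, stood at 22.4 and 8.07 CPM against 114 and 88.1 CPM (log2 fold change -2.62 ± 0.37). The AMPA receptor protein Gsg1l, the choline kinase Chka, the Wnt-binding Sfrp4, Ccdc184 and Grtp1 were also called lower. Of these calls, Chka was kept in 3 of 8 alternatives, Gsg1l in 4 of 10, Sfrp4 in 4 of 11, Grtp1 in 5 of 9 and Ccdc184 in 8 of 11, and Gfra3 was kept in 4 of 9, P2rx1 in 6 of 11 and Rgs4 in 9 of 11. DESeq2 called none of these 8 genes. Grtp1 overlaps Lamp1 on the other strand, and whether counting used strand is not given in the sources used here. Tmem69 had a ratio of 18.8 of cluster 1 over cluster 2 (counting interval 5.05 to 157), but only 4 of 35 neurons of cluster 1 held it and 64.4% of its UMIs lay in 1 of them. The predicted gene Gm37234, outside the ranking, had a ratio of 26.7 (4.63 to 1071) and was likewise held by 4 of 35 neurons, with 54.7% of its UMIs in 1.

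The gene lists place these differences beside genes that were not called. Of the genes listed as group Ib markers, 5 of 11 could be tested, and 2 were higher (Pou4f3 and Id3). Of the others, Pcdh8 stood at 28.0 and 28.3 CPM in cluster 2 and at 10.4 and 13.8 CPM in cluster 1 (adjusted p = 0.325), and Npy1r and Pcdh17 had adjusted p of 0.536 and 0.744. The matrix protein gene Chad (39.2 and 20.2 against 4.60 and 1.73 CPM) and the collagen receptor Itga2 (30.8 and 20.2 against 1.15 and 5.18 CPM) failed the filter on low counts, with plate values that did not overlap. Of the genes listed for group II, 3 of 5 tested were lower in cluster 2: Tac1, the adhesion gene Cdh13 (53.3 and 105 against 109 and 188 CPM) and Crtac1. DESeq2 called 1 of the 3, Tac1. Cdh13 kept its call in 5 of 11 alternatives, and Crtac1 lost its call with DESeq2 and with either plate left out. Crtac1 went the other way in the adult. The study described Cdh13 and Crtac1 as biased, in neonates, to proprioceptors of dorsal and ventral limb muscles, respectively. It found substance P protein in few proprioceptors at p0, and proposed transient early Tac1 activity in other spindle afferents. Whether the list marks group II at p0 was not tested. Group Ia markers gave 0 calls of 4 by edgeR and by DESeq2, with 1 at an unadjusted p under 0.05. Heg1, on both the Ia and the II list, failed the filter on low counts. It stood at 8.41 and 4.04 CPM in cluster 2 and at 43.7 and 19.0 CPM in cluster 1, without overlap, and was found in 3 of 12 and 18 of 35 neurons. Median log2 fold changes were 1.25 for Ib, -0.92 for II and -0.31 for Ia genes. Among all genes tested, 2.12% were called higher and 1.38% lower. The 3 lists mix genes that the study named, mostly for its adult clusters, with others added here. Id3 and Pou4f3 were both reported by the study from these same p0 clusters, so neither call is independent evidence.

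Changes in the structural and electrical genes of the neurons were smaller. The neurofilament genes Nefl (5861 and 6571 against 4622 and 4797 CPM) and Nefm (5735 and 6607 against 4518 and 5042 CPM) were higher in cluster 2, with log2 fold changes of 0.41 ± 0.06 and 0.38 ± 0.06. They overlap on opposite strands, and each kept its call in 7 of 12 alternatives. Of 22 axon growth genes tested, 1 was called higher and 2 lower, beside 2.12% and 1.38% of all genes tested. The growth-associated Stmn4 was lower, at 213 and 157 against 483 and 430 CPM (log2 fold change -1.27 ± 0.15, edgeR adjusted p = 5.11e-15). The actin-binding Tmsb10 was called higher (12257 and 14587 against 10213 and 12134 CPM, log2 fold change 0.28 ± 0.05) and the tubulin-binding Dpysl2 lower (788 and 638 against 1525 and 777 CPM, log2 fold change -0.67 ± 0.09). Both kept their calls in 6 of 12 alternatives. The glutamate receptor Gria2 (168 and 125 against 71.3 and 70.8 CPM) and the potassium channel Kcnb2 (92.5 and 84.8 against 47.2 and 38.0 CPM) were higher. They were the calls among 9 transmitter receptors and 18 potassium channel genes tested, beside 2.12% called higher among all genes tested. DESeq2 called neither. Kcnb2 kept its call in 2 of 11 alternatives, and Gria2 lost its call with DESeq2 and with either plate left out. Spp1 (osteopontin) was lower, at 39.2 and 40.4 against 105 and 124 CPM, a call kept in 7 of 11 alternatives.

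Axon guidance genes (16 tested), sodium and calcium channel subunits (14), synaptic vesicle genes (27), cytosolic ribosomal proteins (67) and nuclear oxidative phosphorylation subunits (68) had no call by edgeR or DESeq2. At an unadjusted p under 0.05 they had 3, 1, 4, 2 and 2 genes. The 8 immediate-early and dissociation genes tested had none either, with 2 at an unadjusted p under 0.05. Their list summed to 3520 and 3406 CPM in cluster 2 and 3920 and 3576 CPM in cluster 1. Of 16 mitochondrially encoded genes, mt-Cytb and mt-Nd2 were called higher (each call kept in 3 of 12 alternatives), beside 2.12% of all genes tested. The median share of mitochondrial UMIs was 3.18% in cluster 2 and 2.83% in cluster 1. The part of the mitochondrial share in the result was not tested.

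**Figure D4:**
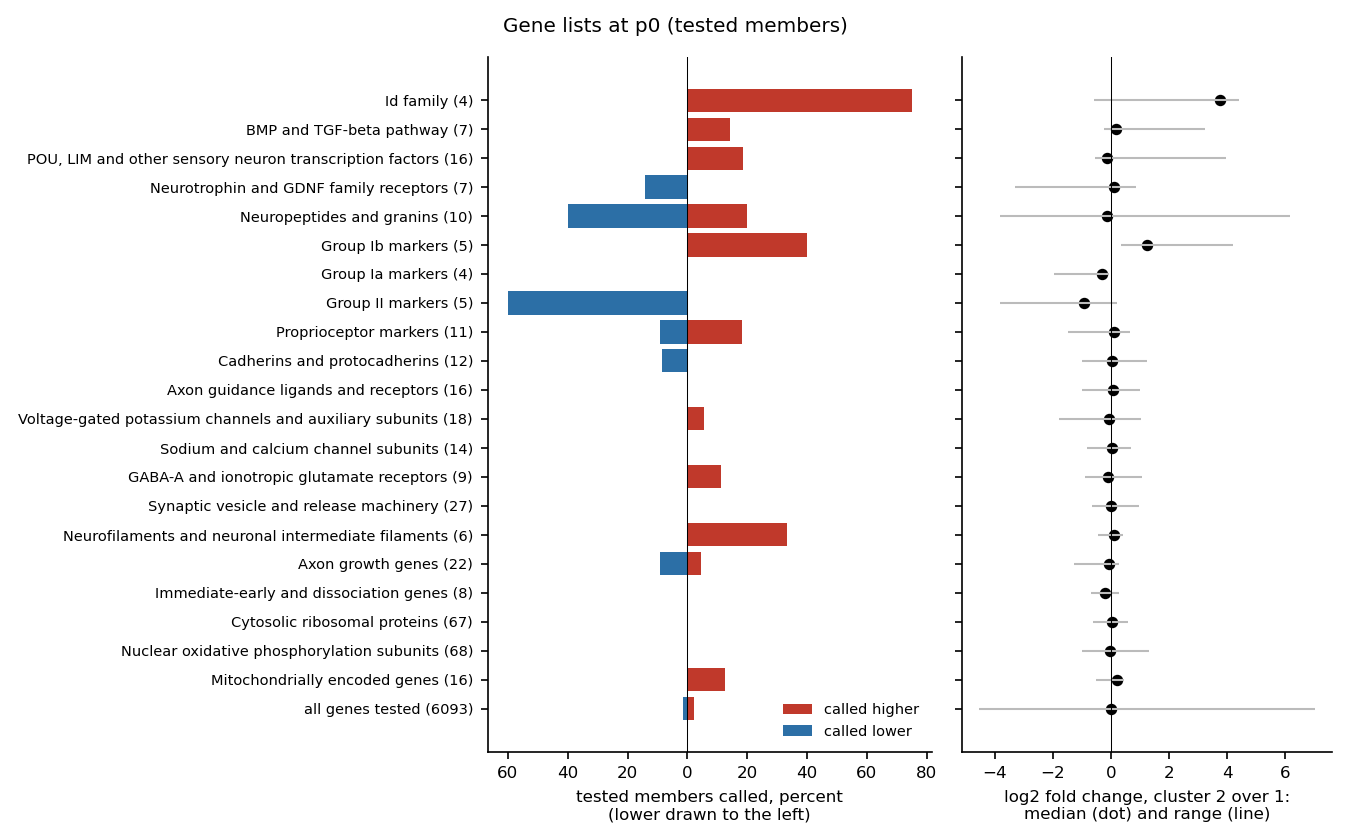
Gene lists with at least 4 tested members (number in brackets): left, percent of tested members called higher (red) or lower (blue) in cluster 2; right, median and range of the log2 fold change. Id genes had 3 of 4 members called higher and the genes listed for group II had 3 of 5 called lower, beside 2.12% and 1.38% of all genes. Id1, Id2 and Id3 were named by the study from these same clusters. Whether the group II list marks that group at p0 was not tested.

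To see the p0 genes in other animals, the same test was run between adult cluster 5, which the study assigned to tendon organ afferents, and the mean of adult clusters 1 to 4 (31 neurons, and 51, 15, 40 and 28 neurons, of the same genotype on 5 plates). Of the 129 genes higher at p0, 105 could be tested in the adult, and 34 were higher in cluster 5 (32.4%, beside 4.29% of all 7370 genes), whereas 6 were lower (5.71%, beside 3.13%). With DESeq2 these counts were 32 higher and 1 lower, and without pairing by plate 26 and 0. Of the 84 genes lower at p0, 71 could be tested, and 15 were lower (21.1%) and 7 were higher (9.86%). The choice of genes at p0 did not use the adult neurons, although the adult clusters were themselves defined on those neurons.

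Id3 and Pou4f3 had the largest adult differences among these genes, and Id2 was called as well. Over the 5 plates, Pou4f3 stood at 55.3, 60.9, 59.4, 57.7 and 46.7 CPM in adult cluster 5 and at 0 to 8.74 CPM in the plates of the other clusters (log2 fold change 4.61 ± 0.42, edgeR adjusted p = 2.69e-08). Id2 stood at 65.8, 67.2, 46.2, 51.0 and 29.2 CPM in cluster 5 and at 0 to 18.8 CPM elsewhere (2.74 ± 0.32). Id3 stood at 31.6, 48.3, 109, 129 and 134 CPM in cluster 5 and at 0 to 15.3 CPM elsewhere (4.84 ± 0.38, edgeR adjusted p = 3.46e-09). None of the 3 overlapped between cluster 5 and the others.

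The following genes were chosen after their values were seen. Asic3, an acid-sensing channel, stood at 132 and 88.8 CPM in p0 cluster 2 and at 42.6 and 48.3 CPM in cluster 1, and at 35.3 ± 25.6 CPM (SD, n = 5 plates) in adult cluster 5 (adult log2 fold change 3.21 ± 0.54). Cpne6, a calcium-dependent phospholipid-binding protein, stood at 311 and 371 CPM against 123 and 130 CPM at p0, and at 420 ± 76.8 CPM in adult cluster 5 (adult log2 fold change 2.08 ± 0.12, edgeR adjusted p = 3.47e-12). The adhesion genes Kirrel3 and Ntm were found in all 12 neurons of p0 cluster 2 and in 33 of 35 of cluster 1 each. Their p0 log2 fold changes were 0.88 and 0.91, and they had adult log2 fold changes of 2.29 ± 0.28 and 2.49 ± 0.19. Crtac1 reversed, being lower in cluster 2 at p0 and higher in adult cluster 5 (1.33 ± 0.40, edgeR adjusted p = 0.0388).

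**Figure D5:**
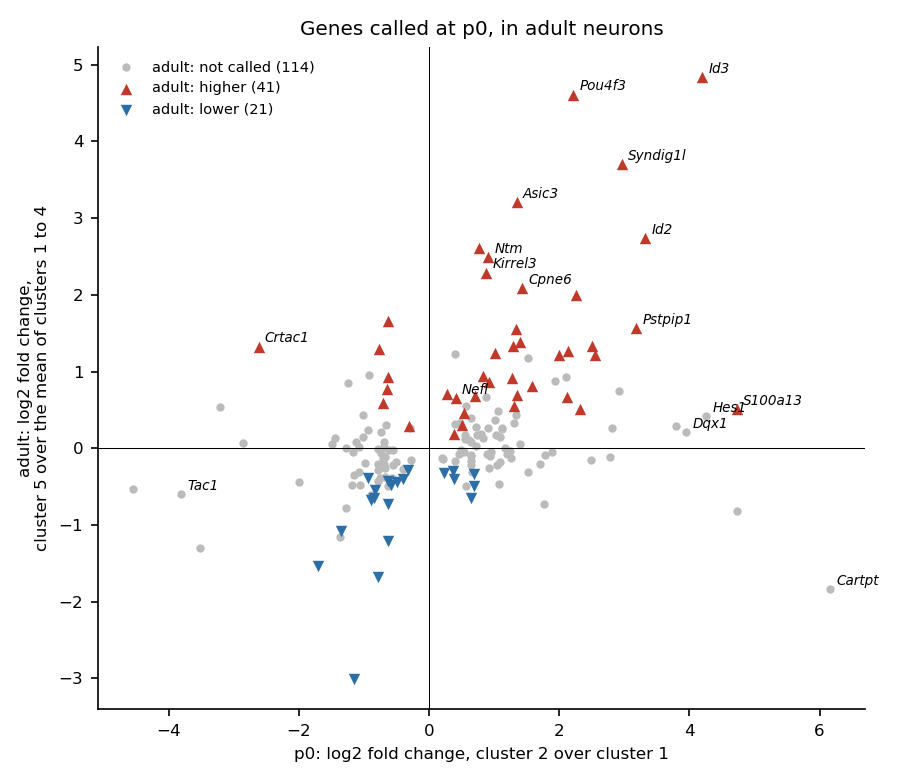
Log2 fold change at p0 (cluster 2 over cluster 1, horizontal) against that in the adult (cluster 5 over the mean of clusters 1 to 4, vertical) for the genes called at p0 and tested in the adult; triangles mark adult calls. Id3, Pou4f3, Id2 and Syndig1l lie at the upper right, whereas Cartpt, Hes1 and Dqx1 were not called in the adult.

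Other genes of p0 cluster 2 had another course. Hes1 reached 148 ± 51.4 CPM in p12 cluster 3, and also 104 ± 0.82 and 144 ± 29.4 CPM in p12 clusters 1 and 4 (SD, n = 2 plates), and adult cluster 5 did not pass the test (log2 fold change 0.42). S100a13 was at 0 to 2.12 CPM in every E14.5 cluster and at 170 to 597 CPM on the plates of all p12 and adult clusters. It was thus high in cluster 2 at p0 and in every cluster later. Cartpt stood at 69.3 and 71.7 CPM in adult cluster 4 and at 0 to 3.30 CPM in adult cluster 5.

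At E14.5 the reporter was TrkC:tdTomato, which labels progenitors by another driver. The study's clusters 1 and 2 at that stage (41 and 88 neurons on 2 plates) were compared for the same genes; neither is tied by the labels to a p0 cluster. Of the 129 genes, 85 could be tested, and 0 were higher in E14.5 cluster 1 by edgeR or DESeq2 (0.0782% of all 5114 genes by edgeR), with 3 at an unadjusted p under 0.05. One was lower, Isl1. Of the 84 genes lower at p0, 63 could be tested, and 7 were lower (11.1%, beside 3.09%) and 2 higher. Id2 stood at 91.7 to 126 CPM on the plates of E14.5 clusters 1 and 2, and Id3 at 66.2 to 114 CPM. Between E14.5 clusters 1 and 2 their log2 fold changes were -0.51 ± 0.28 and -0.41 ± 0.31 (edgeR adjusted p = 0.554 and 0.714).

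Set side by side over stages, with different drivers and depths and hence without a test, Id2 was at 92.2 and 125 CPM in E14.5 clusters 1 and 2 (means of 2 plates) and at 149 ± 39.2 CPM in p0 cluster 2. In p0 cluster 1 it was at 16.1 ± 6.52 CPM. Pou4f3 was at 10.2 to 33.8 CPM in E14.5 clusters 1 and 2, and at 146 ± 7.14 CPM in p0 cluster 2. It was at 140 and 227 CPM in E14.5 cluster 3, which the study, like cluster 4, thought likely to hold neurons other than proprioceptors, from its scant Etv1 and parvalbumin and its raised Maf. At p12 both genes were highest in cluster 3, at 54.0 ± 23.4 CPM for Pou4f3 and 31.5 ± 14.2 CPM for Id2 (SD, n = 2 plates), and Id2 stood next highest in cluster 4, at 10.7 ± 3.68 CPM.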

How the data were processed

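The values deposited by the authors are UMI counts per gene and well. Per the labels and the study's methods, reads were aligned with STAR to mm10 using the NCBI annotation, separated by well barcode and collapsed by UMI; filters and hicat clustering were the authors', and their annotation file gave stage, plate and cluster. No deposited column went unmapped. UMIs of a cluster were summed per plate (at least 2 neurons) and tested with edgeR 4.0.16 in R 4.3.3 (filterByExpr, TMM, plate as a block, quasi-likelihood test, Benjamini-Hochberg adjustment over all genes tested). At p0 this left 4 sums and 1 residual degree of freedom, with a common dispersion of 0.0032. Exact permutation of 2 against 2 plates was not run, since it cannot pass 0.05. CPM is the count divided by all UMIs of the sum and scaled to a common total. Ratios replace fitted folds where a cluster had 1 to 3 UMIs, with 95% exact binomial counting intervals, which cover counting error only.

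The clusters on a plate share its preparation, so the sums are paired by plate; their deviations correlated at 0.13. On simulated counts the test recovered 90.7% of genes changed 2-fold and 100% of those changed 4-fold, with 3.7% false calls (6072 genes, 3 draws). The simulated sums were drawn at the common dispersion of the fit itself, and no neuron in them held most UMIs of a gene. They cannot tell how many of the calls at p0 are false. DESeq2 1.42.0, limma 3.58.1 and other alternatives are given in the closing section. The genes named were those with the 12 largest rises and falls (predicted genes, clones and pseudogenes left out, and the same sign on both plates), the study's markers and factors, and called or most abundant members of the lists. The neurons, markers and gene lists were chosen with earlier results of these data known. Doublets were handled by the study's sorting gates, and no doublet caller was run. Gene overlaps are from GENCODE M21.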

Additional observations from a re-analysis of the deposited data

Results flagged for a closer look

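Among 26 sets of 4 or 5 adult plates in which the genes named above were screened, 4 held a plate far from the others of its cluster; chance alone gives about 1 such set in 20. Tac1, low in p0 cluster 2, stood at 123 CPM on plate 5 of adult cluster 5, which has 3 neurons there. Cartpt and Asic3 each stood at 6.31 CPM on plate 5 of adult cluster 1, which is 1 UMI of each. Id1 stood at 1.71 CPM on plate 4 of adult cluster 3, which is 1 UMI.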

How the results depend on the processing

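The 213 genes called at p0 became 21 with DESeq2, 72 with all stages in the fit, 71 with cluster 3 in the fit, 60 with no replicate block, 133 without the 12 neurons richest in glial RNA (3 of cluster 2), and 14 (of 1114 tested) with neurons thinned to 5000 UMIs. Leaving out each replicate in turn, in the fit of all stages and with the lone sums assumed to vary like the others, gave 15 to 22. Counts of 175 to 232 came from the other size factors, no filter, limma on mean CPM and capped neurons. For 44 named genes over these settings, 290 of 459 calls were kept, 169 were lost and 0 turned direction. Cartpt, Dqx1, Hes1, Id3, S100a13, Sct and Stmn4 were called under every alternative that tested them. Cartpt and Dqx1 were tested in 9 alternatives, against 12 for Id3 and Stmn4. Most UMIs of Cartpt and Dqx1 in cluster 2 lay in 1 neuron of each plate. With the highest neuron set to the second highest, too few UMIs of either were left to test. Id1 lost its call with DESeq2 and without replicate 1. Id2 lost its call only without replicate 1 (edgeR adjusted p = 0.0988), as did Tac1 (0.284), and Pou4f3 lost it without replicate 1 (0.553) and without replicate 2 (0.198). The p0 genes called the same way in the adult numbered 49 (35 to 58 over the alternatives). Those called the same way in E14.5 cluster 1 over cluster 2 numbered 7, all lower at p0 (6 with DESeq2), against 3 called the opposite way. By sign alone, 44 of the 85 tested genes higher at p0 were fitted above 0 at E14.5, and so were 31 of the 63 lower at p0. With 2 plates and 12 neurons, a gene near 20 CPM rests on few UMIs, and a missed call does not show equal levels.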
